A study of Mus musculus with 48 samples.

Results

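The comparison described here is between the spleens of PBS-T mice and those of BCR control mice. Its members were chosen by group and tissue label only, and they are 14 of the 48 libraries of the series, 9 from PBS-T mice and 5 from BCR control mice, each from a different mouse. All were B6 mice. PBS-T mice were the vehicle arm of a fecal microbiota transfer experiment: fecal material was mixed between cages for 7 days, ampicillin, vancomycin and metronidazole were given in the drinking water for 7 days, and PBS was then gavaged once a day for 3 weeks. BCR control mice, labelled NC, came from the same cohort and received no treatment. Whether no treatment also means no cage mixing and no antibiotics is not given in the sources used here, nor is the age of these mice. Gavage, antibiotics, mixing, handling and any difference in age therefore cannot be told apart in what follows. The design text names 10 PBS-T mice, but the study's methods name 9, and the series holds 9 PBS-T spleen libraries, all analysed here. The 10 spleens of NOD-FMT mice, whose gavage carried the fecal microbiota of NOD.B10.H2b donors on the same schedule, appear only as a description. The study's methods state an age of 5 weeks at gavage for NOD-FMT mice and do not repeat it for PBS-T mice.

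The libraries hold rearranged heavy-chain transcripts of the B cell receptor (BCR). A heavy chain is assembled in each developing B cell from 1 IGHV, 1 IGHD and 1 IGHJ gene, and the joint between them, with its added and trimmed bases, encodes the third complementarity-determining region (HCDR3). The constant gene gives the isotype: naive B cells express IGHM and IGHD, and class switching replaces these by an IGHG, IGHE or IGHA gene. IGHA encodes IgA, the antibody of mucosal surfaces, which is known to depend on gut bacteria in mice. Somatic hypermutation, mostly in germinal centers, adds base changes to the IGHV part. The spleen holds mainly naive B cells together with plasma cells, whose far larger amount of antibody RNA gives them a weight beyond their number.

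In the 14 libraries, 1 count is 1 consensus sequence of the reads that carry the same molecular identifier. The totals ranged from 86717 to 584159 counts in BCR control mice and from 215159 to 591813 in PBS-T mice. Sequences found identically in 3 or more of the 24 spleens were removed, which took 4.94% to 11.9% of the counts of 13 libraries and 66.6% of those of PBS-T mouse 6. BCR control mouse 2 was the shallowest library as deposited and PBS-T mouse 6 the shallowest after this removal, with 78315 and 71859 counts left, and both stood apart from their groups in several measures, as given beside those measures. The libraries hold no transcripts other than heavy chains, so the spleen label could not be checked against tissue marker genes.

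Of 31 single-value tests, 3 passed (9.68%), and the mice of both groups did not overlap in 3 (9.68%). They were the mean number of IGHV mutations in IgA, the share of unmutated IgA and the share of clonotypes that use IGHJ1. The test was a two-sided exact permutation test of the difference of group means over all assignments of the 14 mice to groups of 9 and 5, with Benjamini-Hochberg adjustment over the 31 tests and a threshold of 0.05. Before adjustment 5 tests (16.1%) had p under the threshold, the other 2 being the IGHA share of counts and the number of IGHM clonotypes at equal depth.

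IgA of PBS-T mice carried fewer mutations than IgA of BCR control mice. The mean number of mutations per IGHA count, counted as mismatches to the germline IGHV gene, was 4.74, 4.11, 4.86, 4.90 and 5.38 in BCR control mice 1 to 5. In PBS-T mice it was lowest at 2.02, had its median at 2.93 and was highest at 3.72. Each of the 9 PBS-T spleens was below each of the 5 BCR control spleens. The means were 2.82 ± 0.53 (SD, n = 9) and 4.80 ± 0.45 (SD, n = 5), a difference of -1.98 mutations with an SE of 0.27 (exact permutation p = 0.0005, the smallest that this design can give, adjusted p = 0.0077).

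The share of IGHA counts without any mutation moved the other way. It lay between 18.5% and 20.5% in the 5 BCR control mice, a range of about 2 points, and between 29.9% and 47.6% in the PBS-T mice, with a median of 41.8%. The means were 39.7% ± 6.67 (SD, n = 9) and 19.7% ± 0.83 (SD, n = 5), so the PBS-T share was 2.01 times that of BCR control mice (difference 20.0 points, SE 2.25, exact permutation p = 0.0005, adjusted p = 0.0077). At the other end of the distribution, counts with 6 or more mutations made up 29.8% to 41.8% of IGHA in BCR control mice and 11.9% to 27.5% in PBS-T mice. Counts with 10 or more mutations held 7.78% to 15.5% and 2.73% to 9.30%, respectively, where BCR control mouse 2 was the lowest of its group and fell among the PBS-T mice. The class with 1 to 2 mutations overlapped, at 13.4% to 20.1% and 16.8% to 25.6%.

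**Figure D1:**
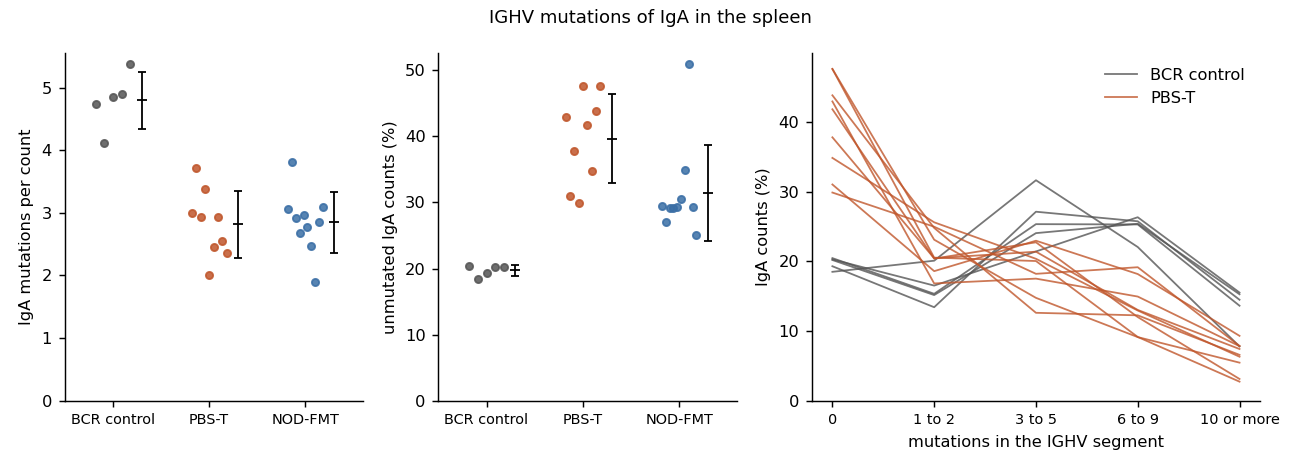
IgA mutations in single spleens. Points are mice, and the black marks give the group mean with its SD; the PBS-T points lie at 2.02 to 3.72 mutations per IGHA count and the BCR control points at 4.11 to 5.38, while unmutated IGHA lies at 29.9% to 47.6% and 18.5% to 20.5%.

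The difference in IgA mutations, -1.98 by counts, kept its direction but was smaller in the alternatives below, which were chosen after seeing the data. With each IGHA clonotype counted once, it was -0.92 mutations, and without the 100 largest IGHA clonotypes of each mouse, which held 50.5% to 68.6% of IGHA counts, it was -1.22. When the mean was taken over the same IGHV genes with equal weights in every mouse it was -1.53. Among clonotypes with more IGHA than other counts in a mouse it was -1.89. Each of these passed the exact permutation test (adjusted p = 0.0155 for each clonotype once and 0.0077 for the others). Of 47 IGHV genes with at least 10 IGHA counts in all 14 mice, 44 had a lower mean in PBS-T mice, and 0 separated the groups without overlap. The gene with the most IGHA counts, IGHV1-26, had 4.37 ± 1.45 mutations in PBS-T and 6.58 ± 0.66 in BCR control mice. For IGHV5-17 the values were 1.23 ± 0.59 and 3.59 ± 1.65. IGHV14-2 went the other way, with 5.47 ± 2.00 and 4.26 ± 2.08 mutations and overlapping mice.

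IGHA counts were also spread over clonotypes of other isotypes in PBS-T mice, as a description without a test. Clonotypes with more IGHA than other counts held 93.4% to 96.5% of IGHA counts in BCR control mice and 67.1% to 91.0% in PBS-T mice. Of IGHA clonotypes, 13.4% to 17.0% also held IGHM counts in BCR control mice, and 14.8% to 25.7% did so in PBS-T mice. The NOD-FMT spleens, given as a description, had 1.90 to 3.82 mutations per IGHA count, with a median of 2.88. All 10 were thus below the lowest BCR control mouse, and their range covered that of the PBS-T mice.

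In the same libraries, mutations of IgM and IgG overlapped between the groups. IGHM counts carried 0.96 ± 0.56 mutations in PBS-T mice (SD, n = 9) and 0.78 ± 0.28 in BCR control mice (SD, n = 5), and the exact permutation p was 0.551. IGHG counts carried 2.23 ± 1.06 and 2.05 ± 0.48 mutations, with an exact permutation p of 0.730 for 9 and 5 mice. Single PBS-T mice spanned more of the scale: unmutated IGHG made up 20.7% of IGHG counts in PBS-T mouse 2 and 69.3% in PBS-T mouse 1, against 33.4% to 63.2% in BCR control mice. Whether the change in IgA differs from that in the other isotypes was not tested.

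The largest IgA clonotypes were unmutated in some spleens and mutated in most, and the HCDR3 sequences of 6 of them are given to show how these joints differ. They are written in coding orientation, from the base after the conserved cysteine codon to the base before the conserved tryptophan codon. Lower case marks the unbroken run of bases equal to germline IGHV at the left end and to germline IGHJ at the right end, each up to the first mismatch. Capitals mark the bases between these runs, counted here as junction bases. They hold IGHD and added bases, and in a mutated clonotype they can also hold IGHV or IGHJ bases that lie beyond a mutated base.
PBS-T mouse 1, IGHV1-9 and IGHJ4: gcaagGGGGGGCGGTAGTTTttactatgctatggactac
PBS-T mouse 9, IGHV3-6 and IGHJ3: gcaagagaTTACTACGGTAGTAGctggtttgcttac
PBS-T mouse 2, IGHV1-9 and IGHJ2: gcaagaGGGGGAAactactttgactac
PBS-T mouse 4, IGHV1-9 and IGHJ2: gcaagaGGGGGTAACTTctttgactac
BCR control mouse 2, IGHV5-17 and IGHJ4: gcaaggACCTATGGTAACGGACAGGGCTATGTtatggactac
BCR control mouse 4, IGHV1-54 and IGHJ2: gcaagaTGGTTAAactac

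In PBS-T mouse 1 the clonotype held 5.23% of IGHA counts, with 94.2% of them unmutated and a mean of 0.12 mutations. That of PBS-T mouse 9 held 8.80% of IGHA counts and was 96.2% unmutated in IgA, and IGHA made up 66.5% of its counts. In PBS-T mouse 6 the leading clonotype in IgA was 81.4% unmutated, but IGHA made up only 1.48% of its counts. In the other 6 PBS-T mice the leading IgA clonotype was 0% to 10.9% unmutated. In PBS-T mouse 2 it held 726 of 10377 IGHA counts with 3.13 mutations on average, and in PBS-T mouse 4 it held 9.14% of IGHA counts with 5.09 mutations. Those of PBS-T mice 3, 5, 7 and 8 had 3.56, 1.85, 2.90 and 1.21 mutations. IGHV1-9 led IgA in 3 of 9 PBS-T mice and in none of the BCR control mice; the genes of these clonotypes were read after their values were seen, and no test was made. The BCR control clonotypes were at 2.03 to 4.66 mutations, and that of BCR control mouse 4, a short joint with 7 junction bases, was 33.5% unmutated, while the other 4 were at 0.17% to 3.37%.

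IgA also made up a smaller part of the counts in most PBS-T mice, but this difference did not pass after adjustment. IGHA was 20.3%, 24.3%, 13.6%, 16.9% and 13.3% of counts in BCR control mice 1 to 5. In PBS-T mice it was 17.8%, 4.06%, 7.43%, 17.8%, 10.9%, 5.36%, 13.8%, 4.22% and 4.32% for mice 1 to 9. The groups overlapped: PBS-T mice 1, 4 and 7 lay within the BCR control range and the other 6 below it. The means were 9.51% ± 5.73 (SD, n = 9) and 17.7% ± 4.67 (SD, n = 5), a ratio of 0.54 (difference -8.20 points, SE 2.83, exact permutation p = 0.0245, adjusted p = 0.19). Fewer IgA cells, less IGHA RNA per cell and more RNA of other isotypes cannot be told apart in these bulk libraries. Without the largest clonotype of PBS-T mouse 6, the PBS-T mean of the IGHA share was 9.80% and the median 7.95%. As a share of clonotypes, not thinned to equal depth, IGHA was 2.32% to 5.40% in PBS-T and 2.67% to 8.43% in BCR control mice. The exact permutation p was 0.462 over 9 and 5 mice. The medians were 2.81% and 3.00%, and the 8.43% came from BCR control mouse 2, the shallowest library of its group. In PBS-T mice 1, 4 and 7, the 3 within the BCR control range of IGHA by counts, the mean number of mutations per IGHA count was 3.00, 3.38 and 2.94. The part of the IGHA share in the difference of mutations was not tested.

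Among the other isotypes none passed. IGHM, the isotype of naive cells, was 73.9% ± 6.82 of counts in PBS-T mice (SD, n = 9) and 68.2% ± 2.82 in BCR control mice (SD, n = 5), with an exact permutation p of 0.106. IGHD was 5.24% ± 1.28 and 6.65% ± 1.51 (exact permutation p = 0.088, n = 9 and 5). IGHG2B was 2.24% to 10.4% in PBS-T mice and 1.88% to 4.98% in BCR control mice, with 4 PBS-T mice above all BCR control mice. IGHG2C split the PBS-T mice: mice 1, 2, 8 and 9 held 5.55% to 8.91%, and the other 5 held 1.16% to 1.82%, while BCR control mice held 1.76% to 3.41%. IGHG1 was 1.06% ± 0.54 and 0.80% ± 0.30, and IGHG3 was 1.15% ± 0.46 and 0.88% ± 0.51 in PBS-T and BCR control mice. Among clonotypes rather than counts, IGHG1 was carried by 0.426% to 1.19% in PBS-T mice and 0.256% to 0.393% in BCR control mice, without overlap. On this scale the means of the other IGHG genes were also higher in PBS-T mice, 2.39% against 1.22% for IGHG2B, 1.32% against 0.696% for IGHG2C and 0.553% against 0.292% for IGHG3, with 6, 3 and 8 of 9 PBS-T mice above all BCR control mice. These shares of clonotypes were singled out after their values were seen. In the exact permutation test of each isotype as a share of clonotypes none passed after adjustment, and the groups overlapped for all isotypes except IGHG1. For the 4 IGHG genes by counts the exact permutation p over 9 and 5 mice was 0.175 to 0.374. IGHE, which encodes IgE, stood on few molecules, from 4 to 320 counts per PBS-T library and from 1 to 90 per BCR control library. Its mean share was 0.020% and 0.0068%, and the highest value, 0.057%, came from PBS-T mouse 8 (exact permutation p = 0.097, n = 9 and 5). By clonotypes its mean share was 0.027% and 0.0058%, with 7 of 9 PBS-T mice above all BCR control mice, and it did not pass after adjustment.

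**Figure D2:**
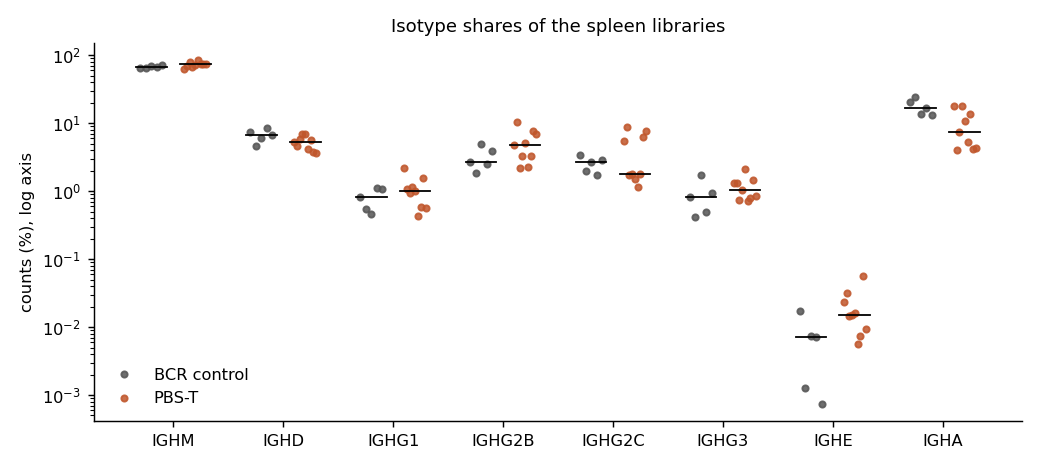
Share of counts of each constant gene on a log axis, with 1 point per spleen and a line at the group median. IGHA lies lower in most PBS-T mice, with medians of 7.43% in PBS-T and 16.9% in BCR control mice, and both groups overlap for each of the 8 genes.

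IGHV use among IgA clonotypes differed as well. A clonotype was the set of sequences that share both genes, IGHV and IGHJ, and the amino acids of HCDR3. The number of clonotypes with at least 1 IGHA count was tested for 76 IGHV genes with edgeR's quasi-likelihood test. It called 9 genes (11.8%) at a Benjamini-Hochberg adjusted p under 0.05, of which 7 (9.21%) were lower and 2 (2.63%) higher in PBS-T mice. Unadjusted p was under 0.05 for 17 genes (22.4%), and 1 gene (1.32%) separated all mice. The genes below were named after their values were seen, because the rule for named genes covers the fits over all isotypes.

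IGHV3-1 (chromosome 12, 113964388 to 113964818 on the minus strand of GRCm38) was the gene that separated all mice. It was used by 0.547% to 1.59% of IGHA clonotypes in BCR control mice and by 0.185% to 0.529% in PBS-T mice. The lowest BCR control mouse and the highest PBS-T mouse were thus close. Libraries held 966 to 7027 IGHA clonotypes in PBS-T and 3499 to 5659 in BCR control mice, so this gap amounts to few clonotypes. The log2 fold change was -1.57 with an SE of 0.31 (edgeR adjusted p = 0.0011). IGHV1-34 (chromosome 12, 114851190 to 114851660) fell by 1.48 on the log2 scale, with an SE of 0.31 and an edgeR adjusted p of 0.0014. Its shares were 0.654% to 1.65% in BCR control and 0.199% to 0.863% in PBS-T mice, and PBS-T mouse 1 alone reached into the BCR control range. IGHV1-39, used by 1.87% ± 0.66 and 1.07% ± 0.21 of IGHA clonotypes in BCR control and PBS-T mice, fell by 0.86 (edgeR adjusted p = 0.0061). The other 4 lower genes, IGHV1-19, IGHV1-18, IGHV1-52 and IGHV1-15, all of the large IGHV1 family, fell by 0.62 to 0.79 on the log2 scale (edgeR adjusted p = 0.0068 to 0.018).

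The 2 genes that rose were IGHV7-3 and IGHV2-3. IGHV7-3 (chromosome 12, 114153180 to 114153644) belongs to a family known for antibodies to phosphorylcholine, a component of bacterial surfaces. Its share of IGHA clonotypes was 1.31%, 0.943%, 1.24%, 1.05% and 0.932% in BCR control mice 1 to 5 and 1.15% to 3.12% in PBS-T mice. Of the 9 PBS-T mice, 8 lay above all BCR control mice. The log2 fold change was 0.91 with an SE of 0.22 (edgeR adjusted p = 0.0052). IGHV7-1, the gene of the same family best known for phosphorylcholine antibodies, was at 0.414% ± 0.145 and 0.417% ± 0.108 and did not pass (edgeR adjusted p = 0.94). IGHV2-3 (chromosome 12, 113611187 to 113611617), which lies near the IGHD end of the locus, was used by 0.414% to 1.88% of IGHA clonotypes in PBS-T mice and 0.373% to 0.891% in BCR control mice. Here 8 PBS-T mice were above all BCR control mice and PBS-T mouse 6, with 966 IGHA clonotypes in all, was the exception (log2 fold change 1.05, SE 0.27, edgeR adjusted p = 0.0068).

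**Figure D3:**
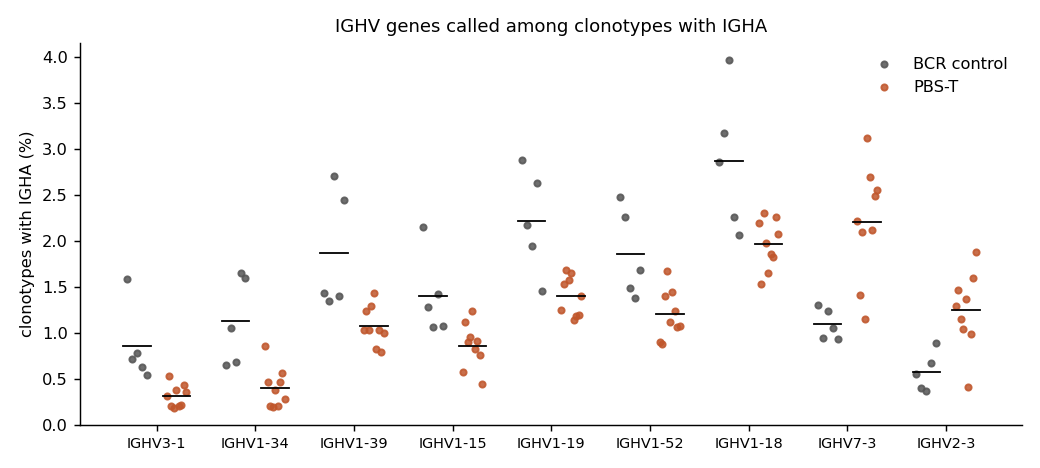
Share of IGHA clonotypes that use each of the 9 called IGHV genes, 1 point per spleen, with a line at the group mean. IGHV3-1 separates the groups, at 0.185% to 0.529% in PBS-T and 0.547% to 1.59% in BCR control mice, and IGHV7-3 and IGHV2-3 lie higher in 8 of 9 PBS-T mice.

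Among clonotypes with more IGHA than other counts, 12 genes were called, 7 of them among the 9 above, and IGHV1-18 and IGHV1-52 were not (edgeR adjusted p = 0.050 and 0.061). Leaving out BCR control mouse 1 reduced the calls to 5 by taking away IGHV1-19, IGHV1-18, IGHV1-52 and IGHV1-15. IGHV1 genes are alike in sequence, the assignment was that of the authors, and its part in these calls was not tested.

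Among clonotypes with an IGHG count, 1 of 75 genes (1.33%) was called, 4 genes (5.33%) had an unadjusted p under 0.05, and 1 gene (1.33%) separated all mice. The called and separating gene was IGHV2-6, named after its values were seen. It was used by 0.313% to 0.783% of IGHG clonotypes in BCR control mice and 0.068% to 0.233% in PBS-T mice (log2 fold change -1.71, SE 0.35, edgeR adjusted p = 0.0026). The shares amount to few clonotypes per mouse, and without BCR control mouse 5 the adjusted p was 0.069. Among clonotypes with an IGHM count, 0 of 98 genes were called (0.0%), 2 (2.04%) had an unadjusted p under 0.05 and 0 separated all mice (0.0%); DESeq2 also called 0.

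Over clonotypes of any isotype, no IGHV gene passed. With edgeR, 0 of 99 genes were called (0.0%), 3 (3.03%) had an unadjusted p under 0.05, and 0 (0.0%) separated all mice; DESeq2 called 0. The 6 genes of smallest p, which did not pass, were IGHV1-20, IGHV1-56, IGHV1-59, IGHV3-1, IGHV1-37 and IGHV1-69, with edgeR adjusted p of 0.79 to 0.95. IGHV1-20 was at 0.234% ± 0.026 in PBS-T and 0.194% ± 0.010 in BCR control mice. IGHV1-56 had a log2 fold change of 0.98 that rested on PBS-T mouse 8, at 0.251%, where the other PBS-T mice were at 0.039% to 0.063%. IGHV3-1 and IGHV7-3, called in IgA, had log2 fold changes of -0.20 and 0.04 here.

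By counts, which weigh each clonotype by its RNA, 0 of 101 genes were called (0.0%), 10 (9.9%) had an unadjusted p under 0.05, and 0 (0.0%) separated all mice. IGHV2-3 came closest, at 1.08% to 2.92% of counts in PBS-T and 0.681% to 1.50% in BCR control mice (log2 fold change 0.99, SE 0.24, edgeR adjusted p = 0.067), and it passed in DESeq2 (adjusted p = 0.0028). The next 5, IGHV1-39, IGHV1-20, IGHV1-62-2, IGHV1-56 and IGHV2-6, had an edgeR adjusted p of 0.32 and did not pass. IGHV1-20 shows how far 1 clone can move a gene: PBS-T mouse 2 held 4.72% of counts on it, and the other 8 PBS-T mice 0.106% to 0.537%.

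No gene of the lists that were looked at apart passed over all isotypes. B-1 cells, which are known for natural antibodies, favour IGHV11-1, IGHV11-2 and IGHV12-3. None of the 3 was called by clonotypes or by counts, with or without removal of shared sequences. By counts the direction depended on that removal. The log2 fold change of IGHV12-3 was 0.018 after it and -1.10 without it (edgeR unadjusted p = 0.037, adjusted p = 0.36). With each shared sequence kept in the mouse with its highest count it was -1.61 (edgeR unadjusted p = 0.015, adjusted p = 0.27). For IGHV11-2 the values were 0.85, -0.31 and -0.62. The cause was not tested. IGHV11-2 was used by 0.058% to 0.104% of clonotypes in PBS-T and 0.059% to 0.068% in BCR control mice, and IGHV12-3 by 0.035% to 0.091% and 0.040% to 0.075%. IGHV11-1 entered the fit by counts alone, at no more than 0.020% in any of these mice. Of the phosphorylcholine genes, IGHV7-1 and IGHV7-3, 0 of 2 passed over all clonotypes or counts (edgeR adjusted p = 0.67 to 1.00).

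The 10 IGHV families with at least 0.5% of clonotypes on average were tested apart by exact permutation, and 0 passed with adjustment over the 10 (0.0%) or without it (0.0%). The distal IGHV1 family held 61.4% ± 2.08 of clonotypes in PBS-T mice and 61.5% ± 2.02 in BCR control mice, and IGHV8, also distal, 3.64% ± 0.68 and 3.48% ± 0.79. The IGHD-proximal families IGHV5 and IGHV2 held 7.29% ± 0.84 and 6.03% ± 0.59 in PBS-T mice, against 7.49% ± 1.02 and 5.91% ± 0.42. IGHV14 was at 4.35% ± 0.39 and 4.58% ± 0.12, IGHV9 at 4.45% ± 0.59 and 4.28% ± 0.99, IGHV3 at 4.03% ± 0.36 and 4.26% ± 0.54, and IGHV6 at 3.85% ± 0.50 and 3.61% ± 0.64. IGHV10 was at 2.37% ± 0.29 and 2.32% ± 0.25 and IGHV7 at 1.74% ± 0.18 and 1.71% ± 0.18. The families below the limit, IGHV4, IGHV11, IGHV12, IGHV13 and IGHV15, each held under 0.5% of clonotypes in each of the 14 mice.

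IGHJ1 was used slightly more in PBS-T mice. Its share of clonotypes was 14.81%, 15.05%, 14.48%, 14.71% and 14.97% in BCR control mice 1 to 5, and in PBS-T mice the lowest was 15.13%, the median 15.38% and the highest 16.19%. The groups did not overlap, though the lowest PBS-T mouse, at 15.13%, and the highest BCR control mouse, at 15.05%, were close. The means were 15.50% ± 0.36 (SD, n = 9) and 14.80% ± 0.22 (SD, n = 5), a difference of 0.70 points with an SE of 0.16 (exact permutation p = 0.0025, adjusted p = 0.026). The call was lost with adjustment when every library was thinned to equal depth (difference 0.71 points, adjusted p = 0.19), among clonotypes with IGHM (0.82 points, adjusted p = 0.057), and when BCR control mouse 1, 3 or 4 was left out (0.61 to 0.70 points, adjusted p = 0.058 to 0.072). IGHJ3 was at 24.2% ± 0.65 and 24.9% ± 0.48, IGHJ2 at 34.2% ± 0.81 and 33.7% ± 1.02, and IGHJ4 at 26.1% ± 0.79 and 26.6% ± 1.56 in PBS-T and BCR control mice. None of the 3 passed (exact permutation p over 9 and 5 mice of 0.075, 0.323 and 0.402), and BCR control mouse 2 lay apart from its group in IGHJ2, at 35.5%, and in IGHJ4, at 23.9%.

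**Figure D4:**
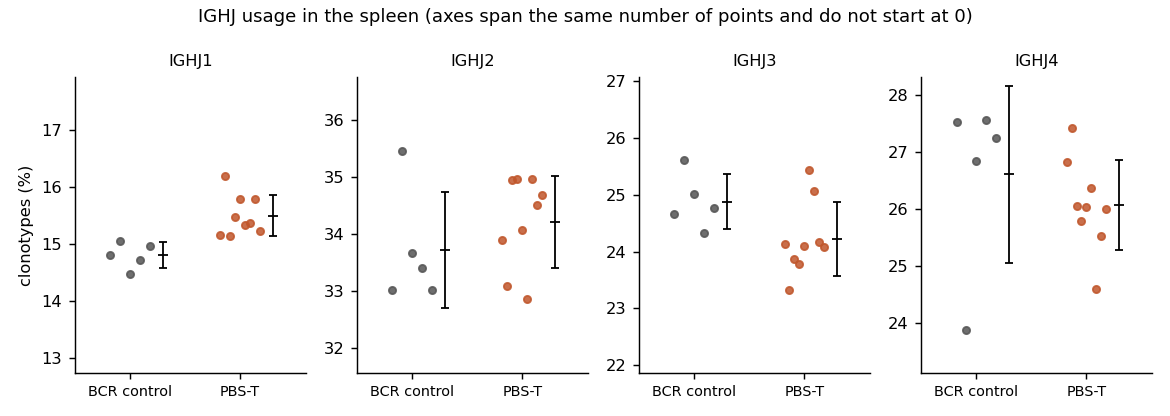
Share of clonotypes that use each IGHJ gene, 1 point per spleen, with the group mean and SD; each axis spans the same number of points and does not start at 0. IGHJ1 lies at 15.13% to 16.2% in PBS-T and 14.5% to 15.05% in BCR control mice, and the groups overlap for the other 3 genes.

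HCDR3 length did not separate the groups over all clonotypes or among those with IGHM, IGHG or IGHA. Over all clonotypes the mean length was 11.51 ± 0.15 residues in PBS-T mice and 11.47 ± 0.23 in BCR control mice, and the difference of 0.04 residues had an SE of 0.11 (exact permutation p = 0.670, n = 9 and 5). For IGHM clonotypes the means were 11.43 and 11.39 residues, and for IGHG clonotypes 11.77 and 11.71. IGHA clonotypes of BCR control mice were tightly placed at 11.64 to 11.79 residues, and those of PBS-T mice ranged from 11.26 to 11.85, with 5 of 9 below all BCR control mice (difference -0.13 residues, exact permutation p = 0.141, n = 9 and 5). BCR control mouse 2 had the shortest mean over all clonotypes, 11.08 residues, and without it the difference over all clonotypes was -0.05. Weighted by counts, the differences were 0.37 residues over all isotypes (SE 0.24) and 0.50 in IGHM (SE 0.27). They were 0.34 in IGHG (SE 0.34) and -0.11 in IGHA (SE 0.23). The groups overlapped in each, and none passed after adjustment. In PBS-T mouse 6, 1 clonotype with an HCDR3 of 14 residues held 40.0% of counts. It weighs on the length by counts of that mouse over all isotypes and in IGHM, and its part in the differences was not tested.

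Fewer clonotypes were found in part of the PBS-T mice at equal depth. Thinned to 71859 counts, the spleens of BCR control mice 1 to 5 held 34935, 38549, 32275, 37159 and 32239 clonotypes. PBS-T mice 3, 4, 5 and 7 held 32734 to 37051, within that range, and mice 1, 2, 6, 8 and 9 held 21913 to 27536, below it. The mean log2 number was 14.80 ± 0.32 (SD, n = 9) against 15.09 ± 0.12 (SD, n = 5), with an exact permutation p of 0.079 and an adjusted p of 0.30. For IGHM clonotypes at 51867 counts the difference was -0.40 on the log2 scale (exact permutation p = 0.049, adjusted p = 0.30, n = 9 and 5). For IGHG clonotypes at 3282 counts it was 0.24 (exact permutation p = 0.089, n = 9 and 5), and without BCR control mouse 2, which held 1240 clonotypes where the other 4 BCR control mice held 741 to 788, it was 0.38 with an adjusted exact permutation p of 0.014. For IGHA clonotypes at 3852 counts the difference was 0.007 (exact permutation p = 0.921, n = 9 and 5).

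Pielou evenness, which is 1 when all clonotypes are of equal size, was 0.83 ± 0.09 in PBS-T mice and 0.88 ± 0.02 in BCR control mice, with an exact permutation p of 0.255. The 100 largest clonotypes held 28.9% ± 11.6 and 21.3% ± 4.99 of the counts, with an exact permutation p of 0.199 for 9 and 5 mice. PBS-T mouse 6 was the extreme of both, with an evenness of 0.60 and 54.7%. Without this mouse the difference in evenness went from -0.053 to -0.024, and that of the 100 largest clonotypes from 7.58 to 4.35 points. Without the largest clonotype of each mouse, evenness was 0.88 ± 0.03 in PBS-T and 0.90 ± 0.02 in BCR control mice, and PBS-T mouse 6, at 0.88, lay between the 0.84 and 0.92 reached by the other PBS-T mice.

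**Figure D5:**
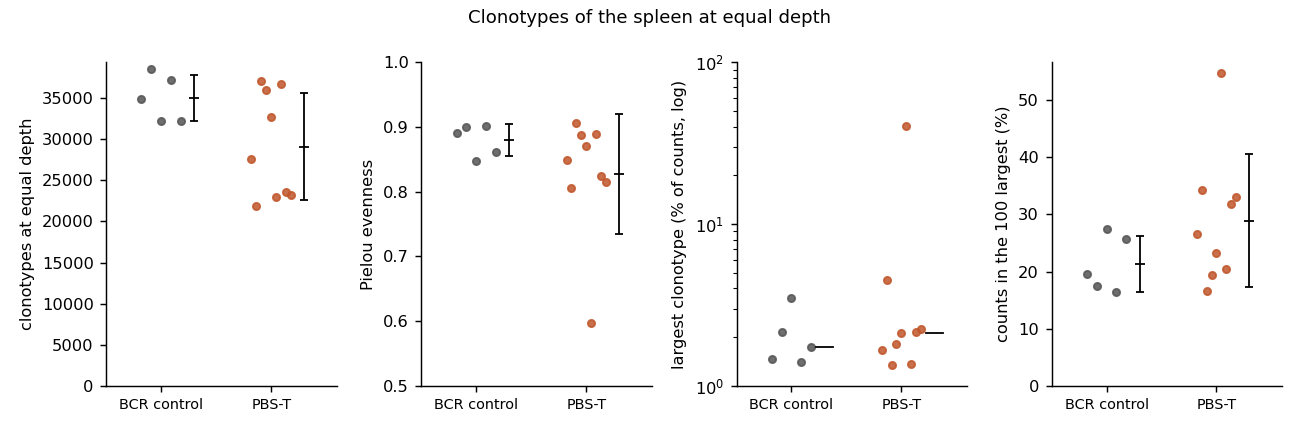
Clonotypes of each spleen at 71859 counts: their number, Pielou evenness, the largest clonotype (log axis, with a line at the median) and the 100 largest, the others with group mean and SD. The evenness axis does not start at 0; PBS-T mouse 6 lies apart in the last 3 panels at 0.60, 40.0% and 54.7%, and 5 PBS-T mice lie below all BCR control mice in the first.

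The expansion in PBS-T mouse 6 was 1 clonotype of IGHV2-9-1 and IGHJ2. It held 168843 of 215159 deposited counts, 78.5% with a Wilson 95% interval of 78.3% to 78.6%, which covers counting error only. Of the deposited counts of the clonotype 98.6% were IGHM and 97.9% were unmutated. Its largest single sequence held 140079 counts and was also listed with 1 to 3 counts in 7 of the other 23 spleens, so removal of shared sequences took it out of all libraries. The clonotype then held 28764 of 71859 counts (40.0%). Its HCDR3 is shown with those of the largest clonotypes of PBS-T mice 2 and 5, BCR control mouse 3 and BCR control mouse 5, which span the range from a long to a very short joint, in the same notation as above.
PBS-T mouse 6, IGHV2-9-1 and IGHJ2: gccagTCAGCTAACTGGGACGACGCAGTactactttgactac
PBS-T mouse 5, IGHV2-9-1 and IGHJ2: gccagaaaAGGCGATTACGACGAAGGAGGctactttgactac
PBS-T mouse 2, IGHV1-20 and IGHJ1: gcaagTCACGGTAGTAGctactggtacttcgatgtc
BCR control mouse 3, IGHV1-26 and IGHJ4: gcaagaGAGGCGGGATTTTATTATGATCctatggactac
BCR control mouse 5, IGHV14-4 and IGHJ3: TACtttgcttac

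In the other mice the largest clonotype held 1.36% to 4.51% of the counts left in PBS-T mice and 1.41% to 3.47% in BCR control mice. The joint of PBS-T mouse 5 uses the same IGHV and IGHJ genes as that of mouse 6 with a different junction; it held 2.13% of counts, of which 67.3% were IGHM. PBS-T mouse 2 had 4.51% on an IGHV1-20 clonotype that was 99.4% IGHM and 95.9% unmutated. The clonotype of BCR control mouse 3, at 3.47%, was 71.8% IGHM but carried 4.69 mutations on average, and that of BCR control mouse 5, with 3 junction bases, was 94.7% unmutated. In PBS-T mouse 1 an IGHV1-80 clonotype led with 1.65% of counts, 74.6% of them IGHG2C, and in BCR control mouse 1 an IGHV1-19 clonotype with 1.46% that was 99.4% IGHG2C. Both of these switched clonotypes were over 95% unmutated. In BCR control mice 2 and 4 the leading clonotype was IgA, which was so in 1 PBS-T mouse, mouse 7.

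One clonotype was large in PBS-T mice 8 and 9, and its most common joint is shown for that reason.
PBS-T mice 8 and 9, IGHV1-26 and IGHJ1: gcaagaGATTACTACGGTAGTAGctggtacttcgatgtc
It was the largest of PBS-T mouse 8, with 2.15% of counts after removal of shared sequences, and held 2.13% in PBS-T mouse 9 and 0.482% in PBS-T mouse 2. It was at 0.0037% in PBS-T mouse 7 and was not found in the other 5 PBS-T mice after the removal. In NOD-FMT mouse 9 it held 1.13%. It was found in 4 of 5 BCR control mice, at no more than 0.042%, so that 6 of 9 PBS-T mice lay below the highest BCR control mouse. The nucleotide joint shown made up 51.4% of the counts of the clonotype in PBS-T mouse 8, and the rest used other joints that encode the same amino acids. In PBS-T mouse 9 it made up 92.2% as deposited. In PBS-T mouse 8 it was 99.5% IGHM with 3.85 mutations on average. These values come from clonotypes chosen for their size, so they were not tested.

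Clonotypes shared between spleens were counted with and without the removal of identical sequences found in 3 or more spleens, since that removal itself takes shared sequences away. As deposited, 95.3% of 1559130 distinct clonotypes were found in 1 of the 14 spleens only, and 73 were found in all 14. These 73 held 0.366% to 3.29% of counts in PBS-T mice and 0.921% to 2.33% in BCR control mice; the count as deposited was added after seeing the data. After the removal, 95.7% of 1554317 were found in 1 spleen only, and 10 were found in all 14, with a mean HCDR3 length of 9.10 residues. The 10 then held 0.026% to 0.153% of counts in PBS-T mice and 0.033% to 0.217% in BCR control mice. The 3 of them with the highest mean share are shown because they were found in each of these mice.
IGHV13-2 and IGHJ4: agtagaTCGGGGgctatggactac
IGHV8-5 and IGHJ3: gctcaaatGCGGGggtttgcttac
IGHV2-9 and IGHJ4: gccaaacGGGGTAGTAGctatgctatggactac
Their junctions have 6, 5 and 10 bases, and another of the 10 has 14. The largest clonotypes of PBS-T mouse 6 and BCR control mice 5 and 4 have 23, 3 and 7. After the removal the IGHV13-2 clonotype held 0.00096% to 0.098% of counts in PBS-T mice and 0.0020% to 0.063% in BCR control mice. It was 89.7% IGHM and 10.1% IGHA. Each of the 3 shown was encoded by more than 1 nucleotide sequence, 28, 13 and 41 in the sequences left in the 14 spleens.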

How the data were processed

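Heavy-chain BCR libraries had been made from spleen total RNA with constant-region primers that carry a molecular identifier and read in pairs on a NovaSeq instrument. Per the study's methods, the authors joined the pairs in PEAR (v0.9.10), required a Phred score of 20 or more over 95% of the bases, grouped reads by identifier (Clustal Omega v1.2.4, groups of 1 read dropped), and annotated them with IMGT constant genes and IgBLAST v1.17.1; the processing notes also name mm10. Each deposited row gives a unique sequence with its count of consensus reads, which is not normalized, and its mismatches to germline IGHV. The deposited fraction column was not used.

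Identical nucleotide sequences in 3 or more of the 24 spleens were removed, in all libraries, and clonotypes were formed as in the study. The study states a smaller share of removed reads than this rule took here. Its supplement keeps nearly all counts of the spleen of PBS-T mouse 6, of which this rule took 66.6% and left 71859. With each shared sequence kept in the mouse with its highest count, 212507 were left. The values of PBS-T mouse 6 and the common depth of 71859 counts thus depend on this rule. Counts left per library were 71859 to 562589. A count of 0 allows a share of up to 0.00053% to 0.0042% (3 counts). Wilson intervals and this limit cover counting error only. Thinning to equal depth was the mean of 10 draws without replacement.

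The mouse was the unit. Single values were compared by exact permutation, and IGHV gene counts by edgeR 4.0.16 quasi-likelihood tests with TMM and filterByExpr, in R 4.3.3, with DESeq2 1.42.0 as an alternative; Python 3.11.15, NumPy 2.4.6, pandas 2.3.3, SciPy 1.17.1 and Matplotlib 3.10.9 did the rest. Both tests were tested on simulated data, edgeR only for the fits over all isotypes and not for clonotypes with IGHM, IGHG or IGHA. The genes called with IGHA or IGHG thus come from fits that the simulated data did not cover. Adjustment was by Benjamini-Hochberg over the 31 single values, over the 10 families and over all genes of each fit. Labels do not say whether mice shared a cage, litter or sequencing run.

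Genes named in the text were all isotype, IGHJ and IGHV family genes, the IGHV genes past the threshold by clonotypes or counts or else the 6 of smallest p, the lists of B-1 cell, phosphorylcholine, IGHD-proximal and distal genes, the largest clonotype of each spleen, and clonotypes in all 14 spleens. The members and lists were chosen with earlier results of these data known. Alternatives were no removal of shared sequences, their retention in the mouse with the highest count, other weights and scales, other normalizations and filters, a replicate block, and each mouse left out in turn. Positions of genes were taken from GENCODE M21 (GRCm38), in which 96 of 101 IGHV genes were matched by symbol. Lacrimal gland and blood libraries were not analysed here.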

Additional observations from a re-analysis of the deposited data

Results flagged for a closer look

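Of 82 combinations of a measure and a group, 10 held a mouse that stood apart. Its gap to the nearest other mouse was large against the whole range of its group. Chance gives about 5% in a single combination. Several combinations rest on the same clonotype or are shares of the same total, so the 10 cannot be set against that value. PBS-T mouse 6 was apart in evenness (0.597), in the share of its largest clonotype (40.0%), in that of the 100 largest (54.7%) and in the share of clonotypes that use the IGHV2 family (7.44%, with 6.28% the next highest). BCR control mouse 2, the shallowest of its group, was apart in IGHJ2 (35.5% of clonotypes), IGHJ4 (23.9%), the IGHV9 family (2.57%, with 4.33% the next lowest) and the log2 number of IGHG clonotypes at equal depth (10.28, with 9.62 the next highest). PBS-T mouse 8 was apart in IGHE (0.057% of counts, with 0.031% the next highest), and PBS-T mouse 2 in the IGHV14 family (3.46% of clonotypes, with 4.14% the next lowest). None of the 10 concerns IgA mutations or IGHJ1.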

How the results depend on the processing

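The mean number of IGHA mutations and the share of unmutated IGHA kept their direction and passed with and without removal of shared sequences, with each unique sequence counted once, in the 4 alternatives for IgA chosen after seeing the data, and without any single mouse. With 1 mouse left out, IGHA mutations differed by -2.15 to -1.84 and unmutated IGHA by 19.0 to 21.2 points. IGHJ1 differed by 0.61 to 0.76 points and lost its call without BCR control mouse 1, 3 or 4. It also lost it as a share of counts (2.87 points, adjusted p = 0.50), among clonotypes with IGHM (0.82 points) and at equal depth (0.71 points), the latter pair chosen after seeing the data. Between 2 and 4 single values passed with 1 mouse left out, and 0 families. Values that did not pass and changed sign with 1 mouse left out had these ranges. HCDR3 length differed by -0.052 to 0.093 residues over all clonotypes and by -0.055 to 0.098 with IGHM. Mutations of IGHG differed by -0.011 to 0.31, and unmutated shares by -6.81 to 0.64 points in IGHG and -1.23 to 3.61 points over all isotypes. The log2 number of IGHA clonotypes differed by -0.031 to 0.048. Families differed by -0.97 to 0.35 points (IGHV1), -0.049 to 0.12 (IGHV10), -0.061 to 0.23 (IGHV2), -0.38 to 0.24 (IGHV5), -0.026 to 0.39 (IGHV6), -0.0097 to 0.10 (IGHV7), -0.15 to 0.33 (IGHV8) and -0.25 to 0.35 (IGHV9). IGHV12-3 by counts had log2 changes of -0.15 to 0.49, and IGHV7-1 of -0.027 to 0.13 by clonotypes, -0.27 to 0.13 by counts and -0.16 to 0.076 with IGHA.

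The replicate numbers 1 to 5 occur in both groups but did not pair the mice: deviations of IGHV use over 91 genes correlated at 0.49, -0.32, -0.06, -0.04 and 0.37, and no mouse matched its own number best. Under the replicate block 0 single values passed, since 5 pairs give no exact p below 0.0625, with differences of -1.79 for IGHA mutations, 18.1 points for unmutated IGHA and 0.75 points for IGHJ1. IGHM and IGHG mutations (-0.016 and -0.22), unmutated IGHG (2.78 points), the IGHV2 family (-0.059 points), IGHV12-3 by clonotypes (-0.021) and IGHV7-1 by counts (-0.10) changed sign. The block called 2 genes with IGHG and 3 with IGHA, the 3 being among the 9.

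IGHV genes with IGHA numbered 5 to 13 with 1 mouse left out (5 without BCR control mouse 1), 11 in DESeq2 and without TMM, and 10 without removal of shared sequences, with retention in 1 mouse, and without the filter on low counts. All 9 were among each of the last 5. Without PBS-T mouse 1 or 9, IGHV1-52 and IGHV1-15 were not called, without BCR control mouse 2 IGHV1-18 and IGHV1-52, and without BCR control mouse 3 IGHV1-18. With IGHG 0 to 1 genes were called, 0 without BCR control mouse 5. By counts 0 to 1 genes were called with 1 mouse left out (1 each without mouse 2 of either group or mouse 8 of the PBS-T group), and 1 without removal of shared sequences, with retention, and in DESeq2. By clonotypes of any isotype and with IGHM 0 were called with each mouse left out.

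Values that did not pass changed sign as follows. The log2 number of IGHA clonotypes differed by -0.0074 with retention and by -0.65 without thinning. With each unique sequence once, mutations differed by 0.018 over all isotypes and -0.19 in IGHG, and unmutated shares by -3.34 and 0.79 points. As shares of counts, IGHV10, IGHV6 and IGHV9 differed by -0.17, -0.19 and -0.13 points. By counts, the log2 change of IGHV11-2 was -0.31 without removal and -0.62 with retention, and that of IGHV12-3 was -1.10, -1.61, -0.023 in DESeq2, -0.17 without TMM and -0.0067 without the filter on low counts. IGHV11-1 was at -0.30 in DESeq2 and IGHV7-1 at -0.14 without TMM. With IGHA, IGHV7-1 was at 0.12 without removal, 0.051 with retention, 0.036 without TMM and 0.17 in clonotypes mostly of IGHA. The cause of these changes was not tested. Depth limits IGHE, with 1 to 320 counts per library, and genes of few clonotypes.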
